A study of Homo sapiens with 8 samples.

Results

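The genes LDHA, TPI1, NDRG1, BNIP3L, EGLN1 and ERO1A, which serve the response to low oxygen and glycolysis, were followed through 8 clones of PC-3. This established human prostate cancer line grows without androgen. The 6 genes are 6 of the 14884 genes that could be named on the arrays, and each was read by 1 probe set. They were chosen by name, with their differences between RWDD4 and control clones already known, so those differences are given as descriptions without a test. Of the clones, 4 carried a lentiviral vector (p-Lenti) with RWDD4 (clones 17, 24, 5 and 6) and 4 carried the same vector empty (clones 2, 3, 4 and 5). All had been selected with blasticidin and grown as isolates, and each gave 1 array. The labels name no treatment and no change of oxygen supply. All clones derive from 1 cell line, so the spread between them is that of clones of PC-3 and not of tumours.

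Cells sense oxygen through prolyl hydroxylases, chiefly the enzyme encoded by EGLN1. In the presence of oxygen they mark the alpha subunits of hypoxia-inducible factor (HIF) for destruction by a ubiquitin ligase that contains VHL. When oxygen falls, HIF persists, pairs with ARNT and switches on genes of glucose use, lactate production, mitochondrial removal and protein folding. Many tumour cells run glycolysis strongly in air as well. All 6 genes are known HIF targets: EGLN1 as a feedback on the sensor itself, ERO1A as an oxidase of the endoplasmic reticulum, BNIP3L as a receptor for the removal of mitochondria, LDHA and TPI1 as enzymes of sugar breakdown, and NDRG1 as a stress-induced gene studied as a metastasis suppressor in prostate cancer.

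HIF binds a short core in DNA, ACGTG or GCGTG, and the stretches upstream of the members were searched for it to show how the genes differ at their own starts. RefSeq (GRCh38.p14) gave such sequence for 4 of the 6 members, and each is printed 5′ to 3′ on the gene's strand up to the outermost annotated start. Capitals mark ACGTG or GCGTG on either strand (read as CACGT or CACGC on the other strand).
EGLN1, chr1:231422288-231422537, minus strand: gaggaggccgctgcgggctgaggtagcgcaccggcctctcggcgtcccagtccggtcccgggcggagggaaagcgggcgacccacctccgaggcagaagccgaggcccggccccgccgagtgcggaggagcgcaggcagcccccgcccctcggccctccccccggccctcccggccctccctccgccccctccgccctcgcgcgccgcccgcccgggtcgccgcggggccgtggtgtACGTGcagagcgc
ERO1A, chr14:52695559-52695808, minus strand: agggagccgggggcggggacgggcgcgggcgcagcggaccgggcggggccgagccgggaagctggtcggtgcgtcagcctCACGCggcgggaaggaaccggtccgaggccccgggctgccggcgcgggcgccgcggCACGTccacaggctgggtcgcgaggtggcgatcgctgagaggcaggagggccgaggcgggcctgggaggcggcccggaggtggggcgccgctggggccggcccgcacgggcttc
LDHA, chr11:18394313-18394562, plus strand: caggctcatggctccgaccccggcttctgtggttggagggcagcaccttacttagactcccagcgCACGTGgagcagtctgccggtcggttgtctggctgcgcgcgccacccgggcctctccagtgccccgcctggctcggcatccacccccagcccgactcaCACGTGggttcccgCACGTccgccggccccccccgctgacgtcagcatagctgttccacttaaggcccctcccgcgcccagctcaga
TPI1, chr12:6867281-6867419, plus strand: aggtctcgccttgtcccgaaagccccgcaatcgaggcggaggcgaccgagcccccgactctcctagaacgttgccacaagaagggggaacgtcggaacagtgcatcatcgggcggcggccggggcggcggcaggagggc
LDHA held the core at 3 separate places, beginning 185, 87 and 73 bases before the start. At the first pair of these the letters CACGTG read as the core on both strands and also form an E-box, the site of another factor family. EGLN1 held it once, 13 bases before the start, and ERO1A at 2 places, at 170 and 114 bases. TPI1 showed 0 matches in the 250 bases before its first listed start, of which the 139 bases upstream of its outermost start are printed, and its second listed start had 2. Among all 35116 windows of 250 bases 43.2% held at least 1 match, so the letters are common, and a match is not evidence of binding.

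Medians over all probe sets were 4.89 to 4.96 (log2) on the 8 arrays. Over the 14884 genes they were 6.09 to 6.13 in the RWDD4 and 5.89 to 6.03 in the control clones. Those ranges did not overlap, and control clone 2 was the lowest. RWDD4 itself was at 9.87 to 10.46 in the clones given it and at 6.64 to 8.0 in the controls, without overlap (exact permutation p = 0.0286, two-sided, the smallest that 4 against 4 clones allow). Keratins and EPCAM of the epithelial marker list were measured (4 of 5), and their mean was 8.41 to 8.52 in the RWDD4 and 8.67 to 8.87 in the control clones. KRT8, KRT18 and KRT19 differed by -0.28, -0.40 and -0.54 (limma, adjusted p = 0.0289, 0.0144 and 0.00571), and EPCAM by 0.13 (adjusted p = 0.52). No background level was available, so a marker could not be called absent. Control clone 2 stood apart from the other control clones, and for the members' differences and correlations the values without it stand beside those with it where they move. Leaving it out of the correlations, and of the axis of variation defined with them, was chosen after the data were seen. Groups also differed in the proliferation markers MKI67, TOP2A and CCNA2, whose mean was 10.14 to 10.45 in the RWDD4 and 7.26 to 8.53 in the control clones; the part of this difference in the results below was not tested. In bulk RNA, more RNA per cell and more cells with that RNA cannot be told apart.

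EGLN1, the oxygen sensor, had higher values in all 4 RWDD4 clones than in the controls. RWDD4 clones 17, 24, 5 and 6 lay at 7.88, 7.77, 7.88 and 7.99 on the log2 scale, and control clones 2, 3, 4 and 5 at 6.44, 7.19, 7.30 and 7.58. The RWDD4 clones were nearly level with each other, while control clone 2 was far below the rest and control clone 5 came close to the RWDD4 clones. The means were 7.88 ± 0.09 and 7.13 ± 0.49 (SD, n = 4 each), a difference of 0.76 (SE 0.20) or 1.69-fold. Without control clone 2 the difference was 0.53, and after quantile normalization 0.48.

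ERO1A, which passes electrons from protein disulfide isomerase to oxygen so that disulfide bonds can form, showed the same layout. Its values were 10.02, 10.09, 9.83 and 10.15 in RWDD4 clones 17, 24, 5 and 6, against 8.39, 9.46, 9.22 and 9.52 in control clones 2, 3, 4 and 5. Again the groups did not overlap, and control clone 2 was the lowest. Means of 10.02 ± 0.14 and 9.15 ± 0.52 (SD, n = 4 each) gave a difference of 0.87 (SE 0.22), or 1.83-fold, and 0.62 without control clone 2.

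BNIP3L, also called NIX, sits in the outer mitochondrial membrane and recruits the autophagy machinery. Clones 17, 24, 5 and 6 of the RWDD4 group had 10.95, 11.11, 10.97 and 10.77, and the control clones 2, 3, 4 and 5 had 9.53, 10.12, 10.20 and 10.11. This was the largest difference of the 6 genes, at 0.96 (SE 0.15) or 1.94-fold, between means of 10.95 ± 0.14 and 9.99 ± 0.31 (SD, n = 4 each). Control clones 3, 4 and 5 lay within 0.09 of each other and clone 2 lay well under them; without clone 2 the difference was 0.80. Of all genes, 11.1% had a larger difference in either direction.

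LDHA encodes the lactate dehydrogenase subunit that favours the step from pyruvate to lactate. Its log2 values were 8.78, 8.81, 9.03 and 8.88 in RWDD4 clones 17, 24, 5 and 6 and 8.05, 8.35, 8.38 and 8.43 in control clones 2, 3, 4 and 5. The groups were apart by a gap of 0.35 between control clone 5 and RWDD4 clone 17, and again control clone 2 was lowest. The means, 8.87 ± 0.11 and 8.30 ± 0.17 (SD, n = 4 each), differed by 0.57 (SE 0.11), or 1.49-fold. After quantile normalization of the deposited values the difference was 0.35. RefSeq lists 6 named pseudogenes of LDHA, 4 of TPI1 and 1 of EGLN1, and whether the probe sets also read such copies was not determined.

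NDRG1 and TPI1 were the members with lower values in the RWDD4 clones. NDRG1 was at 6.76, 7.18, 6.99 and 6.91 in RWDD4 clones 17, 24, 5 and 6, and at 7.27, 7.63, 7.67 and 7.41 in control clones 2, 3, 4 and 5. The gap between the groups was 0.09, between RWDD4 clone 24 and control clone 2. Means of 6.96 ± 0.18 and 7.49 ± 0.19 (SD, n = 4 each) gave a difference of -0.53 (SE 0.12), 1.45-fold lower, which became -0.81 after quantile normalization and -0.74 with the span trend described further on removed. TPI1, which interconverts the triose phosphates midway through glycolysis, was at 6.21, 6.25, 6.23 and 5.84 in RWDD4 clones 17, 24, 5 and 6. Control clones 2, 3, 4 and 5 had 6.98, 6.44, 6.79 and 6.29. Control clone 5 exceeded RWDD4 clone 24 by only 0.05, so the groups of TPI1 were the closest of the 6 genes. The means were 6.13 ± 0.19 and 6.63 ± 0.32 (SD, n = 4 each), and the difference of -0.50 (SE 0.16) was 1.41-fold lower and became -0.38 without control clone 2.

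All 6 genes thus had groups that did not overlap, 4 higher and 2 lower in the RWDD4 clones, and 44.8% of all genes had the same property. The median difference was 0.66 for the 6 genes and -0.08 over all genes. Nothing is read from these figures, since this contrast was known when the genes were picked. No deposited value separates the vector's effect from differences between clones that were present beforehand.

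**Figure D1:**
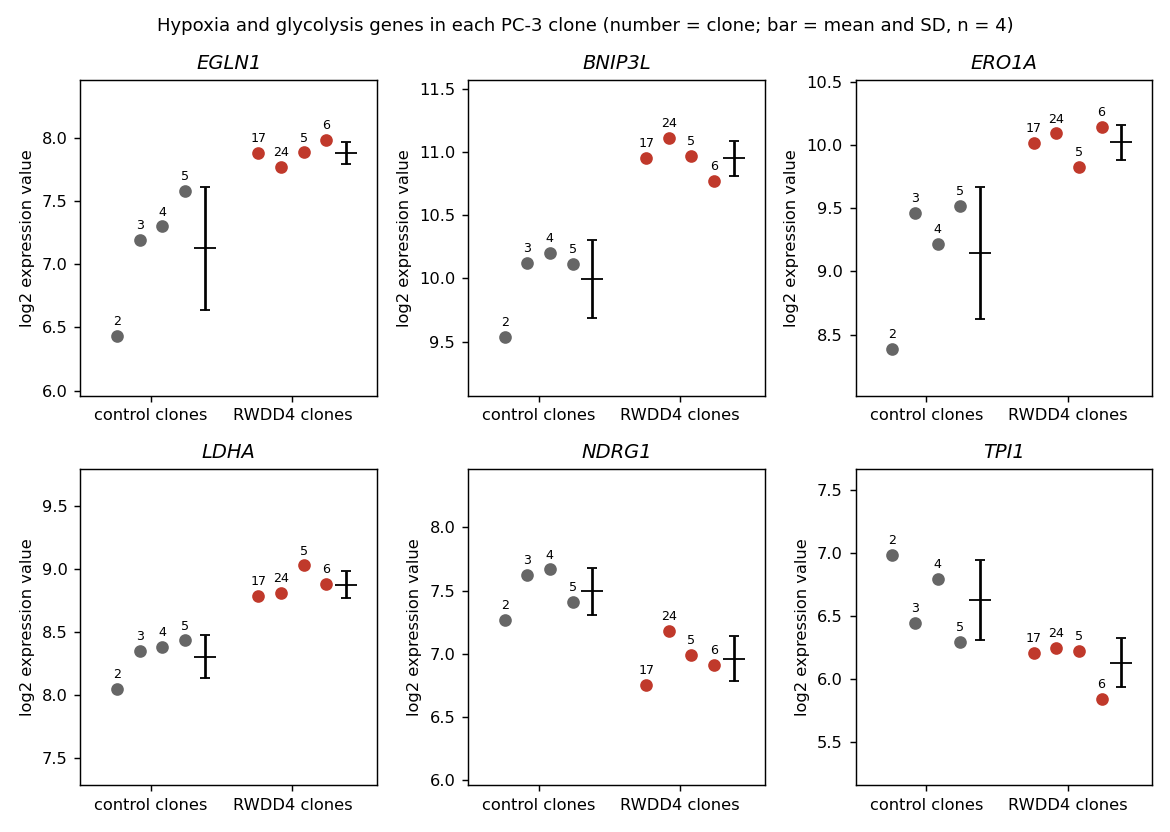
Log2 expression value of each gene (vertical axis, the same height of log2 scale in each panel) in the 4 control clones (grey) and 4 RWDD4 clones (red), numbered by clone, with the mean and SD of each group as a bar. EGLN1, BNIP3L, ERO1A and LDHA are higher in all RWDD4 clones, NDRG1 and TPI1 lower, and control clone 2 is the lowest clone for EGLN1, BNIP3L, ERO1A and LDHA and the highest for TPI1.

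How the members varied from clone to clone inside a group is a measure that the choice of genes did not rest on. Values were centred on each group's mean, and the correlations that follow are over 8 clones with 6 degrees of freedom, as descriptions. All values of a clone share its array and scaling. Over all 8 clones r was 0.91 for EGLN1 with ERO1A, 0.85 for EGLN1 with LDHA, and 0.79, 0.75 and 0.70 for BNIP3L with ERO1A, EGLN1 and LDHA. These values rested on control clone 2. Over the 7 other clones (5 degrees of freedom) EGLN1 had r = 0.29 with ERO1A and 0.38 with LDHA, and BNIP3L had -0.36 with ERO1A, -0.53 with EGLN1 and -0.19 with LDHA. Of the relations of TPI1, those with ERO1A and EGLN1 moved less, from -0.81 to -0.79 and from -0.77 to -0.60. TPI1 with BNIP3L went from -0.32 to 0.78, with LDHA from -0.57 to -0.09 and with NDRG1 from -0.08 to 0.47. NDRG1 with BNIP3L was at 0.73 with all clones and at 0.58 without control clone 2. NDRG1 thus differed between the groups in the direction opposite to BNIP3L, yet had a positive r with BNIP3L inside them in both cases. With the other raised members the r of NDRG1 fell without control clone 2. It went from 0.33 to -0.69 for EGLN1, from 0.48 to -0.23 for ERO1A and from 0.48 to -0.01 for LDHA.

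These relations were measured against the leading axis of variation inside the groups over all 14884 genes, which held 38.9% of that variation. A clone's position on the axis is the sum of its deviations weighted by each gene's part in the axis. Control clone 2 lay at -58.4, the other control clones between -24.4 and -12.2, and the RWDD4 clones between 19.7 and 35.9. Inside the groups r with the axis was 0.93 for EGLN1, 0.90 for LDHA, 0.89 for ERO1A, 0.67 for BNIP3L, 0.40 for NDRG1 and -0.84 for TPI1. With the axis computed again without control clone 2 it was 0.70 for EGLN1, 0.58 for LDHA, 0.25 for ERO1A and -0.79 for TPI1, and it was negative for BNIP3L (-0.88) and NDRG1 (-0.51). The axis then held 27.4% of the variation. Its gene weights had r = 0.59 with those of the first axis, so it was in part another axis. With each clone's position as a covariate in the fit, NDRG1 lay at -0.79 (SE 0.26) and BNIP3L at 0.40 (SE 0.27). LDHA was at 0.13 (SE 0.18), while EGLN1 at -0.37 (SE 0.22), ERO1A at -0.30 (SE 0.26) and TPI1 at 0.26 (SE 0.23) had the opposite sign from before. For EGLN1 and ERO1A that sign was lost when control clone 2 was left out and the axis computed again, changes that were made together. EGLN1 was then at 0.21 (SE 0.21), ERO1A at 0.50 (SE 0.24) and TPI1 still at 0.16 (SE 0.23), with LDHA at 0.33 (SE 0.19), BNIP3L at 1.12 (SE 0.18) and NDRG1 at -0.35 (SE 0.24). The groups lie on different stretches of the axis, so what the axis and the vector each contribute cannot be told apart for these genes.

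**Figure D2:**
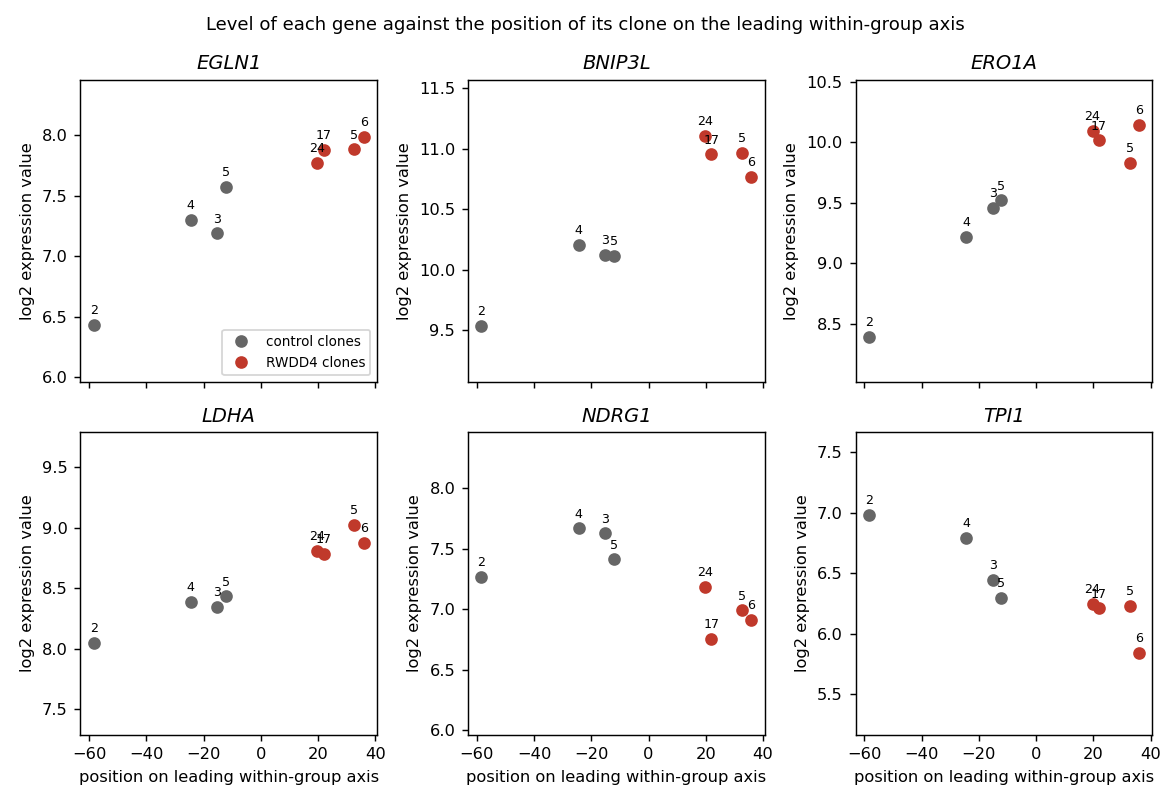
Log2 expression value of each gene against the position of the clone on the leading within-group axis over all genes (horizontal axis, weighted sum of log2 deviations), with control clones in grey and RWDD4 clones in red, numbered by clone. EGLN1, ERO1A and LDHA are lowest in control clone 2, at the far left, and highest in the RWDD4 clones, at the right, while NDRG1 is lower in the RWDD4 clones.

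The genes with the most similar pattern inside the groups, among those whose spread was above the median, differed from member to member. For EGLN1 they were PM20D2, RB1 and TMEM30A (r = 0.996, 0.996 and 0.994 over 8 clones). ERO1A was nearest to CDCP1, SIX4 and RP2 (0.988, 0.986 and 0.981), and LDHA to POGLUT1, NUDCD1 and FBXO43 (0.997, 0.990 and 0.985). For BNIP3L they were SAMHD1, CDCA7L and LAP3 (0.974, 0.964 and 0.962), for NDRG1 TRANK1, ZNF211 and B2M (0.971, 0.970 and 0.965), and for TPI1 MIR4515, UBE2S and HOXC8 (0.983, 0.972 and 0.969). Among so many genes and with few clones such values are easily reached. Without control clone 2 the r of the same pairs was between 0.80 and 0.99.

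The members also differed in the length of genome they span, from 3529 bases for TPI1 and 13863 for LDHA to 30074 for BNIP3L, 55644 for ERO1A, 58532 for EGLN1 and 60078 for NDRG1. Across all 14884 genes, which are not independent, the difference between the groups rose with genomic span (Spearman rho = 0.36). After each array's trend over span had been removed, TPI1 lay at -0.30 (SE 0.14) and NDRG1 at -0.74 (SE 0.12). BNIP3L was then at 0.88 (SE 0.14), ERO1A at 0.68 (SE 0.20), LDHA at 0.66 (SE 0.11) and EGLN1 at 0.55 (SE 0.18). All 6 kept their direction. The differences became smaller for EGLN1 (from 0.76), ERO1A (from 0.87), BNIP3L (from 0.96) and TPI1 (from -0.50), and larger in size for LDHA (from 0.57) and NDRG1 (from -0.53). NDRG1, the longest of them, was lower and the other long genes were higher. The part of span in these differences was not tested.

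**Figure D3:**
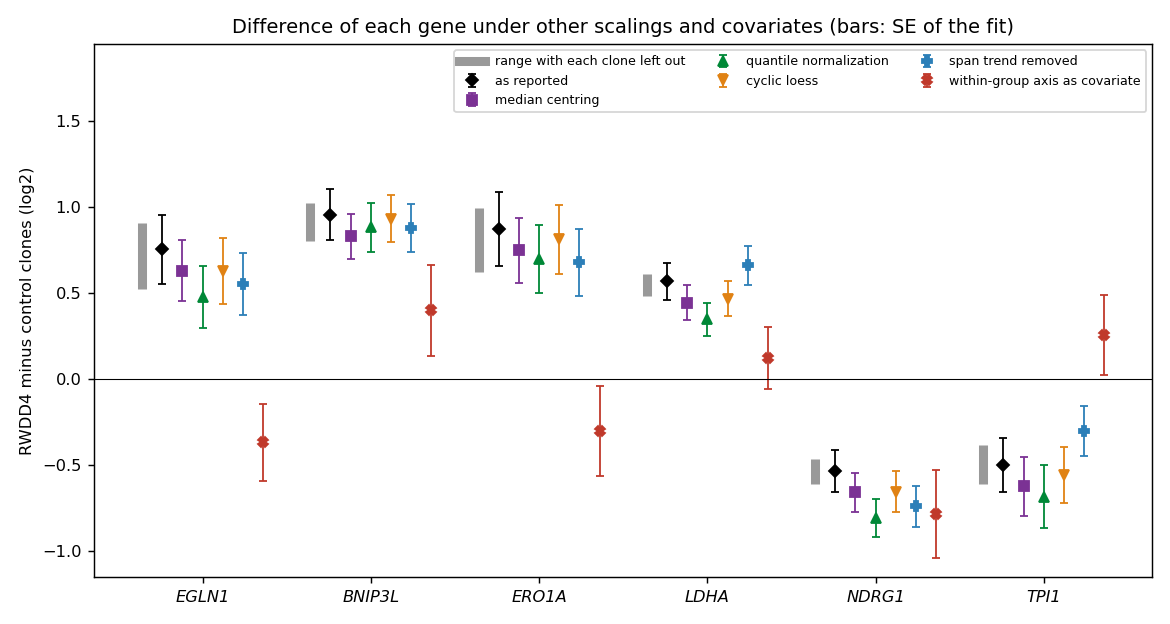
Difference between RWDD4 and control clones (log2) of each gene as reported, under 3 further scalings, with the span trend removed and with the within-group axis as covariate; bars are the SE of the fit, and grey bars give the range when each clone is left out. The sign changes only with the axis as covariate, for EGLN1, ERO1A and TPI1.

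To place the members in their pathways, 82 further measured genes of 7 lists were tested in the fit over all genes (limma, adjusted p under 0.05). Of these, 26 rose and 12 fell. The lists, like the members, were chosen with earlier results of these data known. Their counts and shares, here and below, are therefore descriptions and no independent support for a change of a pathway. Over all genes 46.7% changed, 25.1% up and 21.6% down, against 31.7% up and 14.6% down in the lists, whose median difference was -0.02. The split leaned the other way under 2 scalings: after median centring 21 rose and 26 fell, and after quantile normalization 19 rose and 24 fell. Over all genes the 3741 rises and 3214 falls became 3307 and 5765 with median centring and 3229 and 4332 with quantile normalization. With the axis position in the fit limma called 0 of the 82, and over all genes 0 rises and 1 fall. An unadjusted p under 0.05 was reached by 12 of the 82 (14.6%) and by 1910 of the 14884 genes (12.8%). With that axis computed without control clone 2, 2 of the 82 (LDHB and GPX8) rose and 0 fell, against 341 rises and 12 falls over all genes. Without control clone 2, 24 rose and 12 fell.

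Around the sensor, 6 of 9 measured genes of the HIF system rose and 0 fell (median 0.54). As shares, 66.7% rose and 0% fell, against 25.1% and 21.6% over all genes. The rises numbered 4 after quantile normalization, with the span trend removed, and without RWDD4 clone 17, RWDD4 clone 6 or control clone 4. Over all genes rises then numbered 3229, 3541, 3588, 3394 and 3459, in that order, against 3741 as deposited. CUL2, the scaffold of the VHL ubiquitin ligase, rose most, by 1.59 (SE 0.22, adjusted p = 0.000292), from 7.89 ± 0.55 to 9.48 ± 0.10 (SD, n = 4 each). The coactivators EP300 and CREBBP rose by 0.92 and 0.70, and ARNT, the partner of the HIF alpha subunits, by 0.54 (adjusted p = 0.0054). EPAS1, one of those alpha subunits, rose by 0.58 (adjusted p = 0.0247). SIAH1, a ubiquitin ligase that acts on the prolyl hydroxylases, rose by 0.28 (adjusted p = 0.0431). EPAS1 did not pass after quantile normalization, with the span trend removed, or without RWDD4 clone 17, RWDD4 clone 6 or control clone 4. SIAH1 passed under only 6 of 17 alternatives other than the axis. EGLN3, another prolyl hydroxylase, had low values (3.95 and 4.26) and did not pass at -0.31, though it passed as a fall at -0.43 after median centring (adjusted p = 0.0314) and at -0.43 without control clone 5 (adjusted p = 0.0327). Nor did ARNT2 pass at 0.002 or SIAH2 at 0.03. HIF1A, VHL and EGLN2 were not analysed here.

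Other HIF targets moved in both directions, with 3 of 21 up and 5 down (median -0.12). That was 14.3% up and 23.8% down, against 25.1% and 21.6% over all genes. The histone demethylase KDM3A rose by 1.20 (SE 0.16, adjusted p = 0.000217), the sterol regulator INSIG2 by 0.81 and the ubiquitin ligase adaptor WSB1 by 0.46. ANGPTL4, a secreted inhibitor of lipoprotein lipase, fell by 1.06 (SE 0.14, adjusted p = 0.000188), from 7.21 ± 0.29 to 6.15 ± 0.08 (SD, n = 4 each), and the mTOR inhibitor gene DDIT4 fell by 1.02. KDM4B, another histone demethylase, fell by 0.57, and the vasodilator peptide gene ADM and the cytokine gene MIF fell by 0.33 and 0.29. ADM and MIF did not pass with the span trend removed, nor without RWDD4 clone 5 or RWDD4 clone 6; ADM was also lost without control clone 3 or 4. WSB1 did not pass after quantile normalization or without RWDD4 clone 5. VEGFA, the angiogenic factor, lay at -0.26 and did not pass (adjusted p = 0.0746), though it did as a fall under all 3 further scalings, with array weights and without control clone 2. BNIP3, the paralog of BNIP3L, did not pass at -0.13 (SE 0.11); RefSeq lists 46 named pseudogenes of it. Falls in this list numbered 7 after median centring and 8 after quantile normalization, and 3 with the span trend removed or without RWDD4 clone 5 or 6. Among all 14884 genes falls then numbered 5765, 4332, 3405, 2258 and 2327, in that order, against 3214 as deposited. CA9, PDK1 and P4HA1 were not analysed here.

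In glycolysis itself 1 of 8 other genes rose, LDHB, and 0 fell (median -0.05). The shares were 12.5% and 0%, against 25.1% up and 21.6% down over all genes. LDHB, the second lactate dehydrogenase subunit, rose by 1.31 (SE 0.13, adjusted p = 6.8e-05), with 7.52 ± 0.12 in the RWDD4 and 6.21 ± 0.25 in the control clones (SD, n = 4 each). That difference is larger than the one of LDHA, whose own lay at 0.57. The hexokinases HK1 and HK2 were at 0.01 and 0.03, GPI at -0.06, PGK1 at -0.03 (SE 0.10), GAPDH at -0.13, PGM1 at -0.19 and PGAM1 at -0.31 (SE 0.30), and none of these passed. GAPDH passed as a fall under all 3 further scalings, and PGM1 after median centring and quantile normalization. With the span trend removed HK1 (-0.27), GPI (-0.21) and PGM1 (-0.41) passed as falls.

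Beyond pyruvate, 7 of 16 genes rose, LDHB among them, and 2 fell (median 0.10). This made 43.8% up and 12.5% down, against 25.1% and 21.6% over all genes. Pyruvate dehydrogenase, which feeds pyruvate into the mitochondrial cycle, had all 4 measured subunit genes up: DLD by 1.54, DLAT by 1.31, PDHA1 by 0.65 and PDHB by 0.43. PDHB did not pass after quantile normalization or without RWDD4 clone 17, RWDD4 clone 5 or control clone 4. GPD2, the mitochondrial glycerophosphate dehydrogenase that passes cytosolic electrons to the respiratory chain, rose by 1.92 (SE 0.23, adjusted p = 0.000129), and GPD1L by 1.09. Pyruvate carboxylase (PC) and the D-lactate dehydrogenase LDHD fell by 0.57 and 0.45. The pyruvate carrier genes MPC1 and MPC2 did not pass, at -0.01 and -0.08, though MPC1 passed as a fall after quantile normalization (-0.29). The lactate dehydrogenase relatives LDHAL6A, LDHAL6B and LDHC did not pass either, at -0.24, -0.25 and 0.01. After median centring 4 genes of the list fell, LDHAL6A and LDHAL6B among them, while falls over all genes went from 3214 to 5765.

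Among genes that act with BNIP3L in mitochondrial removal, 4 of 17 rose and 3 fell (median -0.13). These shares, 23.5% up and 17.6% down, were close to the 25.1% and 21.6% over all genes. CALCOCO2, an autophagy adaptor, rose by 0.94 and the survival gene BCL2, whose product binds BNIP3L, by 0.92 (SE 0.21). The mitophagy receptor FUNDC1 and the autophagosome protein gene GABARAPL2 rose by 0.30 and 0.40. Both passed under only 9 of 17 alternatives other than the axis and did not pass after any of the 3 further scalings. PINK1, the kinase of the parallel route through parkin, fell by 0.74 (SE 0.12, adjusted p = 0.000641). The adaptor SQSTM1 fell by 0.30 and BCL2L1 by 0.26. SQSTM1 did not pass without RWDD4 clone 5, RWDD4 clone 6, control clone 3 or control clone 4, nor BCL2L1 without RWDD4 clone 24. Median centring gave 2 rises and 7 falls in this list, beside 3307 rises and 5765 falls among all 14884 genes. In the list 2 rose without RWDD4 clone 5, RWDD4 clone 6 or control clone 4, where 3372, 3394 and 3459 of all genes rose.

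In the folding pathway around ERO1A, 3 of 8 genes rose and 1 fell (median 0.08). That was 37.5% up and 12.5% down, against 25.1% and 21.6% over all genes. GPX8, a peroxidase of the endoplasmic reticulum that uses the hydrogen peroxide made by ERO1A, rose by 2.82 (SE 0.35, adjusted p = 0.000164), from 5.71 ± 0.81 to 8.54 ± 0.42 (SD, n = 4 each). ERP44, which retains ERO1A in the endoplasmic reticulum, rose by 1.48, and the selenoprotein gene SELENOF by 1.18. The sulfhydryl oxidase QSOX1 fell by 0.52 (SE 0.13). After median centring or quantile normalization 3 genes of the list fell, PRDX4 among them, while falls over all genes went from 3214 to 5765 and 4332. As deposited, PRDX4, another peroxide consumer there, did not pass at -0.10, nor did the paralog ERO1B at 0.24 (SE 0.14), whose means lay under 4.92, the median over all probe sets.

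Relatives and regulators of NDRG1 changed in both directions, with 3 of 7 up and 1 down (median -0.05). The shares were 42.9% up and 14.3% down, against 25.1% and 21.6% over all genes. NDRG3 rose by 0.35 (adjusted p = 0.0188) and NDRG2 fell by 0.28 (adjusted p = 0.0356), while NDRG4 did not pass at -0.28 (SE 0.16). It did pass as a fall after median centring or quantile normalization, with the span trend removed, and without RWDD4 clone 24. The kinases GSK3B and SGK1, which phosphorylate NDRG1, rose by 0.83 and 0.46. MYC, a repressor of NDRG1, lay at -0.24 and did not pass (adjusted p = 0.055), though it passed as a fall under all 3 further scalings. NDRG2, NDRG3 and SGK1 each failed under 5 or more of 17 alternatives other than the axis, each of them without control clone 4. NDRG2 failed further without RWDD4 clones 24, 5 or 6 or control clone 2, NDRG3 without RWDD4 clone 5, and SGK1 without RWDD4 clones 17 or 6 or control clone 2. Median centring and quantile normalization left 1 and 2 genes of this list up, with 3 down each. All genes together had 3307 and 3229 rises and 5765 and 4332 falls under these scalings.

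**Figure D4:**
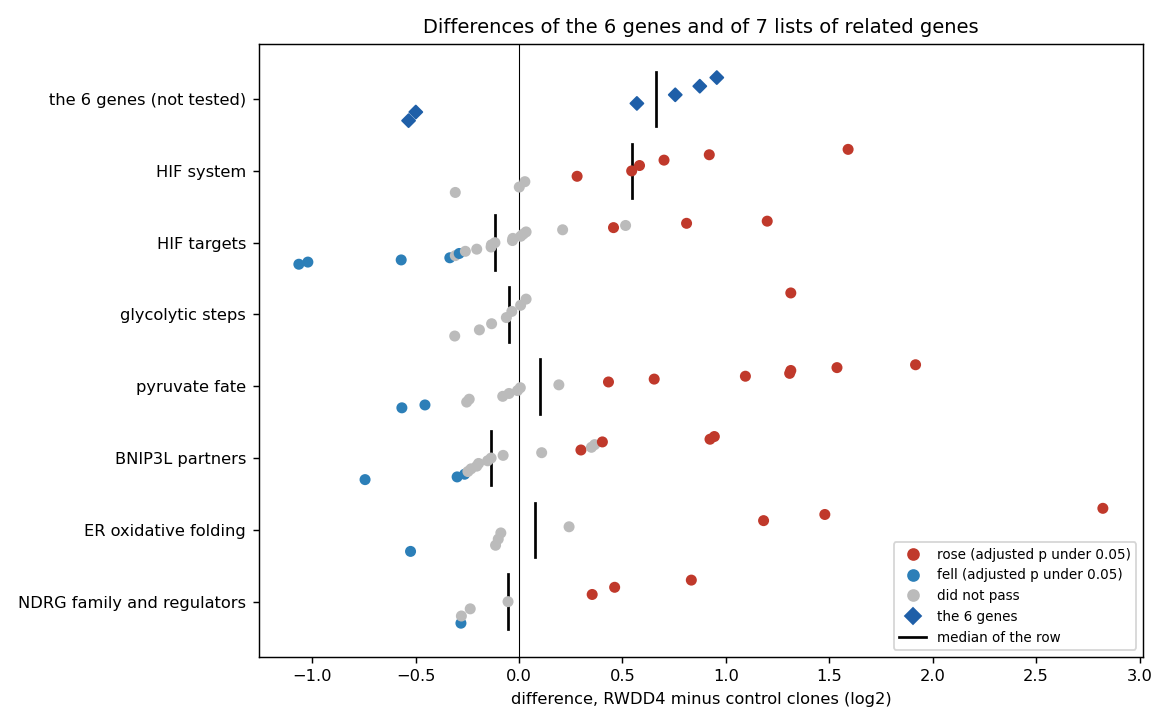
Difference between RWDD4 and control clones (log2, horizontal axis) of the 6 genes (diamonds, not tested) and of the measured genes of 7 lists (1 point a gene), coloured by whether the gene rose, fell or did not pass; black lines are medians. In the HIF system 6 of 9 genes rose and in glycolysis 1 of 8, where 25.1% of all genes rose, and ER oxidative folding holds the largest rise, GPX8 at 2.82. The lists were chosen with earlier results of these data known.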

How the data were processed

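RNA of 8 PC-3 clones was labelled by a whole-transcript kit and hybridised to 1 Affymetrix array per clone, per the labels. The values are log2 values deposited by the authors, made with RMA in Partek per the submitters' processing notes; version, settings and genome build were not given in the sources used here. RMA compresses small changes near the background. Of 53617 probe sets, 16098 had 1 gene symbol in the platform annotation, 0 had several and 37519 were unlisted; 14884 genes were named through RefSeq gene IDs, each by its probe set of highest mean. Groups were compared with limma 3.58.1 (lmFit, eBayes; R 4.3.3), two-sided, without covariates, Benjamini-Hochberg over all genes, on 4 against 4 clones. Precision is limited by the number of arrays. The steps were tested on simulated data, and p-values measure the spread between these clones.

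The members and the lists were chosen with earlier results of these data known. By rule, any list gene could be named, and of the HIF targets up to 6 past the test per direction and BNIP3, CA9, VEGFA, ADM, P4HA1 and PDK1. Alternatives were another variance model, other probe sets, a filter on level, 3 scalings over genes, array weights, the within-group axis as covariate, the trend over genomic span (lowess, span 0.3) and leaving out each clone. Marker lists fixed for other cells were measured in part: CD14 of 6 blood markers (-0.42), PECAM1 and VWF of 6 stromal markers (-0.13 and -0.31), and KLK3 of 7 genes that PC-3 has lost or silenced (-0.05). CD14 and VWF passed limma as falls (adjusted p = 0.0159 and 0.035). Their means in RWDD4 and control clones, 4.09 and 4.51 for CD14 and 4.53 and 4.84 for VWF, lay under the median over all probe sets, 4.92. PECAM1 (5.44 and 5.57) and KLK3 (5.76 and 5.81) did not pass.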

Additional observations from a re-analysis of the deposited data

Results flagged for a closer look

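In groups of 4 clones, a clone was singled out where its gap to the nearest other clone took up more of the group's range than Dixon's critical value, which chance gives in about 1 of 20 groups. Of 132 groups looked at, 7 met this. TPI1 in RWDD4 clone 6 was at 5.84, against 6.21 to 6.25 in the other RWDD4 clones. BNIP3L in control clone 2 had 9.53, where the remaining control clones had 10.11 to 10.20. WSB1 was at 7.47 in control clone 2, where the others had 7.84 to 7.91. KDM3A in RWDD4 clone 5 was at 7.5, against 7.16 to 7.21. LDHAL6A in control clone 5 was at 4.49, against 4.20 to 4.24, and NDRG4 in RWDD4 clone 24 at 7.02, against 6.46 to 6.55. RWDD4 itself was at 9.87 in RWDD4 clone 6, against 10.42 to 10.46.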

How the results depend on the processing

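The 6 members kept their direction under all alternatives except the within-group axis as covariate, with or without control clone 2. Leaving out each clone gave 0.49 to 0.61 for LDHA, -0.61 to -0.38 for TPI1, -0.61 to -0.47 for NDRG1, 0.80 to 1.03 for BNIP3L, 0.53 to 0.91 for EGLN1 and 0.62 to 0.999 for ERO1A. Moves beyond the spread between clones came from quantile normalization (LDHA 0.35, NDRG1 -0.81), the removed span trend (NDRG1 -0.74) and the axis covariate. With that covariate LDHA was at 0.13, NDRG1 at -0.79 and BNIP3L at 0.40, and the sign turned for TPI1 (0.26), EGLN1 (-0.37) and ERO1A (-0.30). Among named genes past the test as reported it also turned for EP300 (-0.24), CREBBP (-0.28), WSB1 (-0.12), PC (0.18), PDHB (-0.042), GABARAPL2 (-0.14), NDRG2 (0.076) and NDRG3 (-0.011). None of these passed limma with the axis in the fit (adjusted p from 0.593 to 0.988). Their SEs there were 0.17 to 0.30, so the sign of each is uncertain. HK1, not past the test at 0.01, passed at -0.27 with the span trend removed. Sign changes of genes past the test neither as reported nor under the alternative are not listed. With the axis computed without control clone 2, an alternative chosen after the data were seen, LDHA was at 0.33, NDRG1 at -0.35 and EGLN1 at 0.21. The sign was then turned for TPI1 (0.16), EP300 (-0.097), CREBBP (-0.11), ADM (0.062), BCL2 (-0.11), QSOX1 (0.023) and NDRG2 (0.0049), and of the 82 list genes 2 rose and 0 fell. The cause was not tested.

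Of the list genes, 18 of 26 rises and 7 of 12 falls passed under all 17 alternatives other than the axis, and with the axis 0 rose and 0 fell. Falls numbered 26 after median centring and 24 after quantile normalization, where all genes together had 5765 and 4332. Leaving out each clone gave 19 to 26 rises and 8 to 14 falls in the lists. Median centring moved the median difference of all genes from -0.08 to -0.21. No paired analysis was possible because the groups share only 1 clone number, 5, and a number only names a clone. Signal over background was not available here, which limits what can be said of the lowest values.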
